A study of Mus musculus with 2 samples.

Results

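Signals of 10 genes of lipid-associated and recruited macrophages were compared between precancerous livers of Pik3ca transgenic mice that were Kdm3a knockout or Kdm3a wild type. The genes were Trem2, Tyrobp, Clec7a, Gpnmb, Lgals3, Cd9, Capg, Itgax, Ccr2 and Cx3cr1. They were read by 17 probe sets of the 34945 on the array that name a single gene, and 0 further probe sets name a member together with another gene. The set was selected on general knowledge of these macrophages and, in part, on lower signal in the knockout array than in the wild-type array, so its own differences are given as a description, with no test, and support nothing by themselves. After a filter on low signal, 11 of the 17 probe sets remained, and each of the 10 genes kept at least 1 of them, among 11693 genes kept in all.

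The knockout group was Pik3caTg;Kdm3aKO and the control group Pik3caTg;Kdm3aWT, so both carried the hepatocyte-specific transgene of the catalytic subunit of phosphoinositide 3-kinase, and the knockout lacked in addition the histone H3 lysine 9 demethylase KDM3A. Whole liver tissue was used, on regular chow, with 1 Affymetrix array for each genotype. Age, sex, the promoter of the transgene, the extent of the Kdm3a deletion and whether an array held RNA of a single mouse are not given in the labels. With 2 arrays the spread between animals is unknown, and no p-value is given. Every difference describes these arrays and not the genotypes, and their number limits the precision.

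Macrophages of the liver include resident Kupffer cells and cells that arise from blood monocytes. Monocytes enter tissue through the chemokine receptor CCR2, whose ligands are CCL2 and its relatives. In fatty or injured tissue, monocyte-derived cells can take on a lipid-associated state marked by TREM2, GPNMB, CD9 and galectin-3, in which lipid uptake and lysosomal breakdown are prominent. TREM2 binds lipids and lipoproteins and has no signalling motif of its own, so it works through the adaptor TYROBP, whose tyrosine motif (ITAM) recruits the kinase SYK.

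The median signals of the arrays were 76.2 for the knockout and 71.4 for the wild type, after scaling by the authors to the same trimmed mean. Kdm3a had a signal of 61.6 in the knockout array and 720 in the wild-type array, by 1 probe set whose place relative to the deletion is not known here. Pik3ca, transgenic in both groups, had 1107 in the knockout and 1069 in the wild type. The ratio of 3' to 5' signal, a sign of RNA integrity, was 1.99 in the knockout and 1.85 in the wild type for actin, and 0.654 in the knockout and 0.701 in the wild type for Gapdh. Probe sets of 18S ribosomal RNA averaged 25397 in the knockout array and 14134 in the wild-type array, and the part of this difference in the results was not tested. The tissue held macrophage RNA on both arrays: Csf1r, the receptor of the macrophage growth factor, had signals of 8457 in the knockout and 11474 in the wild type, and Adgre1, which encodes F4/80, 1124 in the knockout and 1657 in the wild type.

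The promoters of the members are described here with no test. The genes differed in the same direction, which their selection in part fixed. RefSeq windows of GRCm38.p6, from 250 bases before to 50 bases after a transcript start, were found for 9 of the 10 members, all but Tyrobp. The letters TGANTCA, which AP-1 factors are known to bind, occurred on either strand in the windows of Gpnmb, Trem2 and Itgax, that is in 3 of 9 members, and in 8.97% of the 27025 genes with a window. These windows are shown 5' to 3' on the plus strand with the match in capitals, up to 30 bases past the start.
Gpnmb, chr6:49036268-49036547: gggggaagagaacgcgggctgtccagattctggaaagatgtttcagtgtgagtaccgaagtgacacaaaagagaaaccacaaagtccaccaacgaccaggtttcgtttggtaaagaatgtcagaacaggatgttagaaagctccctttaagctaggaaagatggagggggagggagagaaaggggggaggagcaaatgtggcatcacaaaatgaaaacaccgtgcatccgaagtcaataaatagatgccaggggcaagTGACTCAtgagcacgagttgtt
Trem2, chr17:48346151-48346430: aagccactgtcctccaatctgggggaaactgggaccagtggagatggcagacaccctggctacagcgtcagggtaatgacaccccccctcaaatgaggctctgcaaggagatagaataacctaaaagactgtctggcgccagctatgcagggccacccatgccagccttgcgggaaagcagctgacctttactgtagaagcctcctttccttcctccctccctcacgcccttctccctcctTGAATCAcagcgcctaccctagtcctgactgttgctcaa
Itgax, chr7:128129300-128129579: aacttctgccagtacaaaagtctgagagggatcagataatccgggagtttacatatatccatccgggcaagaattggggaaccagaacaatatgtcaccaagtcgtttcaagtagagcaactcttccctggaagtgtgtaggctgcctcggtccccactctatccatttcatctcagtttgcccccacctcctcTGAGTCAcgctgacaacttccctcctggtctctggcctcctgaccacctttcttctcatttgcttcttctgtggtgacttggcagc
The match began 9 bases into the transcript in Gpnmb, 9 bases before the start in Trem2 (position -9) and 56 bases before it in Itgax (position -56). The letters GAGGAA, the core bound by the macrophage factor PU.1, were found in Trem2 and Clec7a, 2 of 9 members, and in 31.3% of all genes. CATGTG, an E-box read by factors of the MITF family, was found in Cd9 alone, against 15.9% of all genes, and CACGTG in 0 of 9 members, against 8.09%. TTGCNNAA of C/EBP factors was found in Trem2 alone, against 12.2% of all genes, TATAAA in Clec7a alone, against 15.7%, and the interferon response element, searched as a pair of GAAA blocks spaced by 2 bases, in 0 of 9, against 3.99%. Spi1, which encodes PU.1, was itself below the filter, at 45.1 in the knockout and 98.3 in the wild type. A match of letters is a description of the window and not a binding site.

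Among the receptors and their adaptor, the lipid receptor gene Trem2 had a signal of 131 in the knockout array and 683 in the wild-type array, which is 5.21-fold lower in the knockout. Its second probe set was dim on both arrays, at 30.9 in the knockout and 67.2 in the wild type, and pointed the same way. Tyrobp, the adaptor through which TREM2 signals, had signals of 1854 in the knockout and 4744 in the wild type. It was 2.56-fold lower, the smallest difference of the 10 genes. Tyrobp is also used by receptors of natural killer cells and neutrophils, so its signal is shared among more cell types than that of Trem2. Clec7a encodes Dectin-1, a receptor for fungal beta-glucan that carries its own SYK-recruiting tyrosine motif. Its signal was 1292 in the knockout and 6492 in the wild type, 5.02-fold lower.

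The genes linked to lipid-laden macrophages spanned the largest differences. Gpnmb encodes a transmembrane glycoprotein of macrophages loaded with lipid. Its signal was 93.2 in the knockout array and 1616 in the wild-type array, so that 5.77% of the wild-type signal was left, a 17.3-fold difference. A dim second probe set of Gpnmb read 2.10 in the knockout and 55.0 in the wild type. Lgals3 encodes galectin-3, a lectin that binds beta-galactosides and recognises damaged lysosomes. It had 748 in the knockout and 8344 in the wild type, an 11.1-fold difference. On both genes the wild-type array was far the brighter, and these were the 2 members with the lowest ratios.

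Cd9 encodes a tetraspanin, a membrane protein that organises other surface proteins. Its signal was 1015 in the knockout array and 4351 in the wild-type array, 4.29-fold lower in the knockout. Capg encodes a protein that caps actin filaments. It had signals of 203 in the knockout and 797 in the wild type, 3.93-fold lower, while its dim second probe set read 46.2 in the knockout and 65.9 in the wild type. Lgals3, Cd9 and Capg are not confined to macrophages, and bile duct cells, stellate cells or fibroblasts can express them, so the values of those cells' markers are given further on.

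Itgax encodes the alpha chain of the integrin CD11c/CD18, a marker of dendritic cells and of recruited macrophages. It had a signal of 125 in the knockout array and 428 in the wild-type array, 3.43-fold lower in the knockout. Ccr2 and Cx3cr1 encode the chemokine receptors of classical and of patrolling monocytes. Cx3cr1 had 84.4 in the knockout and 409 in the wild type, 4.85-fold lower, and its second probe set lay under the floor of 46.5 on both arrays. The floor is the signal below which values were treated as having no order.

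Ccr2 was read by 4 probe sets, more than any other member, and they did not all point the same way. Its brightest had 71.1 in the knockout array and 287 in the wild-type array, 4.03-fold lower in the knockout. The next had 61.7 in the knockout and 161 in the wild type, 2.60-fold lower. Of the 2 below the filter, 1 read 2.54 in the knockout and 69.2 in the wild type, and the other read 84.1 in the knockout and 59.9 in the wild type. That last was the only one of the 17 member probe sets with a higher signal in the knockout array, as deposited. Ccr2 was also the only member whose knockout signal lay under the filter value of 73.7, so it was kept through its wild-type signal.

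**Figure D1:**
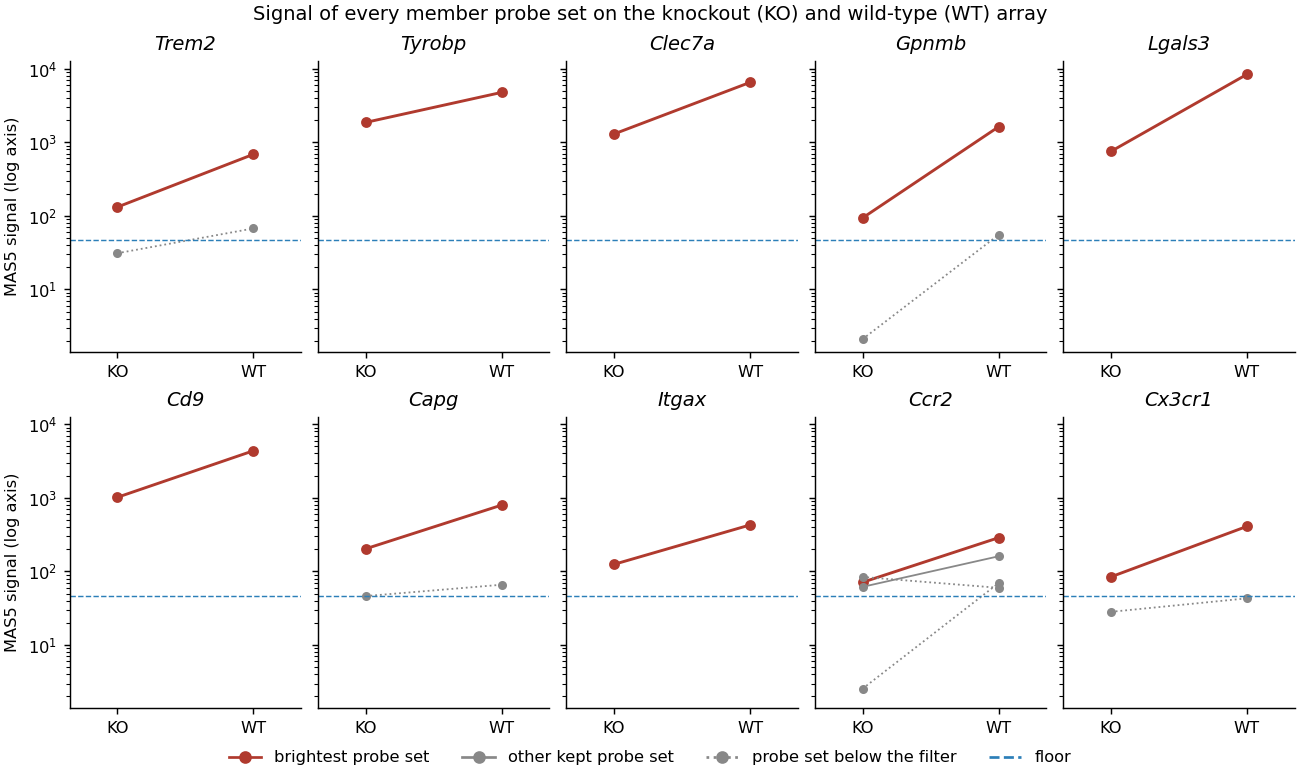
MAS5 signal on a log axis of every probe set of the 10 member genes, with the knockout array (KO) left of the wild-type array (WT) in each panel; red is the brightest probe set of a gene, grey the others, dotted those below the filter, and the dashed line is the floor of 46.5. All 10 red lines are higher at WT, with the dimmest Ccr2 (71.1 at KO against 287 at WT) and the brightest Lgals3 (748 at KO against 8344 at WT), and 1 dotted line of Ccr2 is higher at KO.

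By their brightest probe sets, 10 of 10 members had a signal at least 2-fold lower in the knockout array. Of all 11693 genes kept, 8.96% were at least 2-fold lower and 3.83% at least 2-fold higher. Since the rule used these values, nothing is read from the member count. At the level of probe sets, 11 of the 11 kept ones of the members were at least 2-fold lower, against 8.19% of all 19800 kept. The members' median log2 ratio, knockout over wild type, was -2.19, beside -0.02 over all genes kept. Ranked from the lowest ratio, Gpnmb stood at 7 and Lgals3 at 21 of 11693, and Tyrobp, the last of the members, at 598. In quintiles of mean signal, 14.8% of the dimmest genes were at least 2-fold lower, against 4.40% of the brightest. Of the members, 4 lay in the brightest quintile (Tyrobp, Cd9, Lgals3 and Clec7a) and 0 in the dimmest. Genes with several kept probe sets, 4958 in all, had probe sets that differed in log2 ratio with an SD of 0.446, which is a spread between probe sets and not between animals.

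Scalings by a constant factor (array medians and both kinds of control) shift all members alike, whereas with loess or quantile scaling some members had higher ratios than as deposited and others lower. With loess, Capg stood at -1.90 and Clec7a at -2.36, beside -1.97 and -2.33 as deposited. Over 5 other scalings, the median of all genes shifted by -0.14 on the log2 scale with hybridisation controls and by 0.19 with poly-A controls, RNA spiked in before labelling. Lower genes made up 70.1% of all genes past 2-fold as deposited, 80.6% with hybridisation controls, 78.0% with array medians and 52.3% with poly-A controls. Under the poly-A scaling, which raises the knockout array most, the log2 ratio of Tyrobp was -1.17 and that of Gpnmb -3.93, and 10 of 10 members were still at least 2-fold lower.

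**Figure D2:**
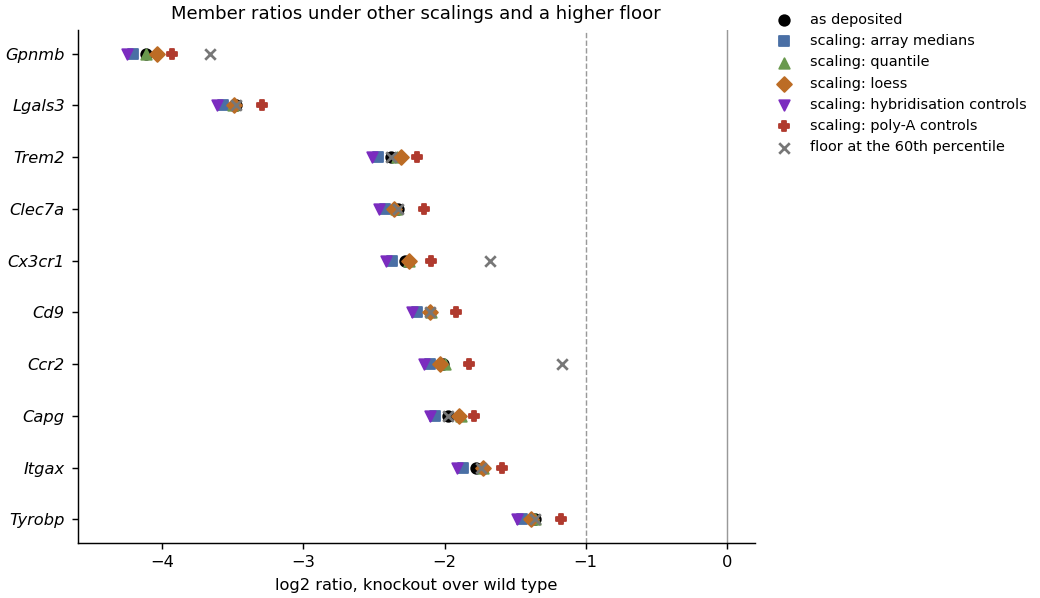
Log2 ratio of knockout over wild type for each member by its brightest probe set (rows), as deposited, under 5 other scalings and with a higher floor; the dashed line marks a 2-fold lower signal. Every point lies left of the dashed line, from -4.25 for Gpnmb with hybridisation controls to -1.16 for Ccr2 with the higher floor.

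The ITAM signalling list covers genes that act with or downstream of TREM2, TYROBP and Dectin-1. It also holds antibody receptors and the ITAM adaptor that those receptors use. The knockout array was at least 2-fold lower for 4 of 18 kept genes and higher for 0, against 8.96% and 3.83% of all genes kept. The other 14 lay within 2-fold, and the median log2 ratio was -0.49. The lower genes were Inpp5d (-2.05), Fcgr1 (-1.68), Fcgr3 (-1.25) and Fcer1g (-1.18). Inpp5d encodes SHIP1, a phosphatase of blood cells that removes the lipid product of phosphoinositide 3-kinase, and had signals of 104 in the knockout and 430 in the wild type, though its second probe set stood at -0.77. Fcgr1 and Fcgr3 encode antibody receptors, and Fcer1g their shared ITAM adaptor, and a second probe set of Fcgr1 stood at -0.43. The kinase gene Syk (-0.94) and Hcst (-0.80), which encodes the adaptor DAP10, did not reach 2-fold by their brightest probe sets. A second probe set of Syk stood at -1.30, past 2-fold lower. Vav1 (0.53), Pik3cd (0.38) and Vav3 (0.07) had the highest ratios by their brightest probe sets, which for Pik3cd read 28547 in the knockout and 21951 in the wild type. Another probe set stood at -0.74 for Pik3cd, and past 2-fold lower for Vav1 (-1.06) and Vav3 (-1.17). Nfatc1 went the other way, at -0.48 by its brightest probe set and up to 1.27, past 2-fold higher, by another. With poly-A controls 3 genes were at least 2-fold lower, and with the mean of probe sets 5 were.

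Of 21 kept genes of the lipid-associated programme other than the members, 12 passed 2-fold towards lower signal in the knockout array (9 with poly-A controls). Towards higher signal 0 passed, and the median was -1.12. Among all genes kept, 8.96% were at least 2-fold lower. Mmp12, the macrophage elastase, had a signal of 113 in the knockout and 1381 in the wild type (-3.61). The fatty acid carriers Fabp4 (-2.80) and Fabp5 (-1.94) were lower, as were the lysosomal membrane protein gene Cd68 (-2.11) and Lgals1 (-1.44), which encodes galectin-1. Fabp4 is also an adipocyte and endothelial gene, and its 3 probe sets ranged from -2.80 to -0.98. Lysosomal hydrolases stood closer to 0 by their brightest probe sets: Ctsd, Lipa, Ctsz and Ctsb ranged from -0.85 to -0.47. Other probe sets reached -0.98 for Lipa, -0.95 for Ctsz and -0.98 for Ctsb. Apoe (0.32) and Ctsl (0.19) had the highest ratios, both genes that hepatocytes express as well. A second probe set of Ctsl stood at -1.41, and its brightest turned to -0.04 under the lowest of the other scalings. Mitf (-0.39), the gene of a transcription factor that drives Gpnmb in other cells, had signals of 294 in the knockout and 385 in the wild type.

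The ligands of the chemokine receptors were at low signal. Ccl2, the main ligand of CCR2, read 40.4 in the knockout array, under the floor, and 345 in the wild-type array, so it was at least 7.42-fold lower in the knockout. Cx3cl1, the ligand of CX3CR1, had 57.1 in the knockout and 178 in the wild type (-1.64), but its second probe set went the other way (0.56). Ccl7 lay below the floor on both arrays and Ccl12 below the filter, at 4.88 in the knockout and 118 in the wild type. Of the 8 kept recruitment and growth factor genes, 4 had signals at least 2-fold lower in the knockout, against 8.96% of all genes kept. None of the 8 was 2-fold higher, and the median was -1.08. The other lower genes were the chemokine receptor Ccr1 (-2.10) and the macrophage growth factor Csf1 (-1.17). A second probe set of Csf1 stood at -0.51, and its brightest at -0.99 under the highest of the other scalings. Its receptor Csf1r (-0.44) and the receptor subunit Csf2ra (0.03) lay within 2-fold. The knockout signals of Ccl2, Cx3cl1 and Ccr1 lay under the filter value of 73.7, so these genes were kept through their wild-type signals.

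Genes of direct binding partners were lower in part. The knockout array was at least 2-fold lower for 6 of 13 kept genes and higher for 0, against 8.96% and 3.83% of all genes kept. The median of the 13 was -0.82. Ptgfrn (-2.28), a CD9-associated immunoglobulin-family protein, had 84.8 in the knockout and 412 in the wild type. Lgals3bp (-1.68) encodes a glycoprotein bound by galectin-3, and Cd44 (-1.44) a hyaluronan receptor. Itgb2, the beta chain that pairs with the product of Itgax, had 493 in the knockout and 1113 in the wild type (-1.17). The tetraspanin Cd82 (0.19) and the syndecan Sdc4 (0.71) had the highest ratios. Itgam, the alpha chain of the related integrin CD11b, was below the filter, at 57.1 in the knockout and 55.9 in the wild type.

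The members' gene families were set beside them, and their counts stand beside 8.96% lower and 3.83% higher among all genes kept. Of 10 kept tetraspanins related to Cd9, 3 were at least 2-fold lower (Tspan8, Cd151 and Cd53) and 7 lay within 2-fold, with a median of -0.22. Probe sets of Cd151 ranged from -1.21 to 1.04 and those of Tspan8 from -2.96 to 0.69, while Cd53 (-1.14), a tetraspanin of white blood cells, had a single one. Of 6 galectins, Lgals1 was lower, Lgals12 (1.02) was higher and 4 lay within 2-fold. With hybridisation controls 0 galectins were at least 2-fold higher, and with poly-A controls 2 were. Among gelsolin relatives of Capg, Gsn (-1.10) was lower and Svil (-0.42) and Flii (-0.20) lay within 2-fold. Neither of the 2 kept Dectin-cluster genes, Clec1a (-0.68) and Clec1b (-0.11), reached 2-fold. Of 4 further chemokine receptors, Ccr1 was lower, and Cxcr3 (-0.06), Cxcr6 (0.14) and Ccr6 (0.15) lay within 2-fold. How a member's ratio differs from its relatives was not tested, since each gene has a single ratio.

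**Figure D3:**
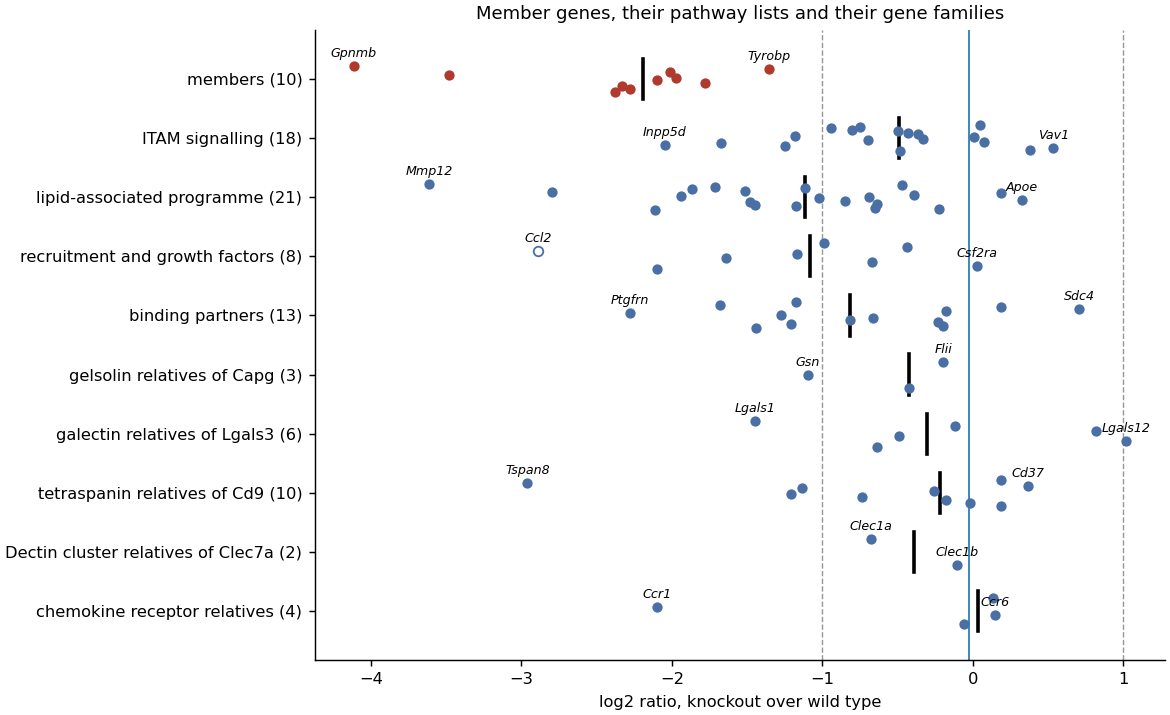
Log2 ratio of knockout over wild type for each kept gene (points) of the members, 4 pathway lists and 5 gene families, with the number of genes in brackets; black bars are list medians, open points have a value at the floor, dashed lines mark 2-fold and the blue line is the median of all genes at -0.02. The members' median lies at -2.19, the lipid-associated programme at -1.12 and ITAM signalling at -0.49, and family medians lie between -0.42 and 0.04.

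General macrophage markers were lower alongside the members. The knockout array was at least 2-fold lower for 11 of 15 kept markers (7 with poly-A controls), against 8.96% of all genes kept. It was at least 2-fold higher for 0, and the median of the markers was -1.18. Their summed signal in the knockout array was 50.2% of that in the wild-type array. The co-receptor Cd14 (-2.24), Cd68 and Fcgr1 had the lowest ratios, and Mrc1 (-0.01), Csf1r and Adgre1 (-0.56) the highest. All 10 members lay below the median of these markers, and 5 of them (Gpnmb, Lgals3, Trem2, Clec7a and Cx3cr1) lay below each of the 15. The members' median was 1.01 lower on the log2 scale (-1.01), a difference that the choice of members bears on and that was not tested. In whole tissue, fewer cells of a type and less RNA per cell cannot be told apart.

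Kupffer cell markers leaned the other way, with 11 of 13 ratios above 0. The knockout array was at least 2-fold higher for 4 of 13 kept markers, against 3.83% of all genes kept, and lower for 0. The other 9 lay within 2-fold. In the wild type 3 of 13 were below the floor, and the median was 0.43. Cd163, a scavenger receptor for haemoglobin, read 1110 in the knockout and 1.55 in the wild type, at least 23.9-fold higher. Marco and Timd4, receptors for particles and for dying cells, were at least 6.01-fold and at least 4.86-fold higher. Each of these 3 passed the filter through its knockout signal alone, and a second probe set of Marco stood at 1.56. The remaining marker past 2-fold was C6 (1.13). The markers that were bright on both arrays differed less: Clec4f had 3181 in the knockout and 1921 in the wild type (0.73), and Vsig4 had 5838 in the knockout and 3254 in the wild type (0.84). Cd5l (-0.28) had the lowest ratio. The number of higher markers was 5 with poly-A controls, 3 with hybridisation controls and 2 of 10 kept with the filter at the 70th percentile.

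Among 8 kept monocyte markers, the knockout array was at least 2-fold lower for 4 (2 with poly-A controls) and higher for 1. The shares of all genes kept were 8.96% lower and 3.83% higher, and the markers' median was -0.84. Chil3, a secreted chitinase-like protein of monocytes and neutrophils, was at least 13.2-fold lower, with 27.5 in the knockout array and 615 in the wild-type array. S100a4 was at least 2.78-fold lower, and Plac8 (-1.11) and F13a1 (-1.05) were lower. The knockout signals of Chil3, S100a4 and F13a1 lay under the filter value of 73.7, so these genes were kept through their wild-type signals. Spn (1.13), which encodes the surface protein CD43, was the higher marker, and its second probe set stood at -0.38. The defining marker Ly6c2 was not analysed here.

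Markers of other cells that can express members differed as well, and their part in the members' ratios was not tested. For the counts that follow, 8.96% of all genes kept were at least 2-fold lower and 3.83% at least 2-fold higher. Of 7 kept cholangiocyte markers, 6 were at least 2-fold lower in the knockout, with a summed signal at 16.7% of the wild type and a median of -1.75. Cd24a (3472) and Tspan8 (1305) held most of the wild-type sum of 6134, so the summed share rests mainly on them. Other probe sets reached 0.69 for Tspan8 and -0.08 for Epcam, 2 of the 7 markers. Of 12 stellate cell and fibroblast markers, 9 were lower, with a summed signal at 42.5% and a median of -1.79. Krt19, a bile duct keratin, had 63.4 in the knockout and 245 in the wild type, and Col1a2, a fibrillar collagen, 571 in the knockout and 5295 in the wild type. The cholangiocyte median rests on few genes: it was -1.23 with the mean of probe sets, -2.96 with a filter at percentile 70 and -0.94 with a floor at percentile 60. Of 3 kept neutrophil markers, S100a9 (-2.18) and S100a8 (-1.73) were lower and Csf3r (0.52) was not. Of 5 natural killer cell markers, Klrd1 (-1.63) and Nkg7 (-1.29) were lower, Gzma (0.80) was highest, and the median was -0.28. Of 5 dendritic cell markers, Irf8 (-1.10) was lower, Zbtb46 (0.61) was highest, and the dendritic cell markers Flt3 and Xcr1 lay below the filter. None of 3 T cell markers reached 2-fold by their brightest probe sets as deposited. Cd8a stood at 0.64 by its brightest and at -1.33 by its second, and with hybridisation controls 1 T cell marker was at least 2-fold lower. Endothelial markers had 1 of 9 lower, Vwf (-1.20), and a median of -0.25, and hepatocyte markers had a median of 0.45, with Tat (1.22) highest and 2 of 8 at least 2-fold higher. Some lower markers had knockout signals under the filter value of 73.7 and were kept through their wild-type signals. They were Krt19, Krt7 and Sox9 (cholangiocyte), Des and Thy1 (stellate cell and fibroblast) and Nkg7 (natural killer cell). In none of these lists was a kept marker at a signal of 0, and 0 of them lay below the floor on either array.

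**Figure D4:**
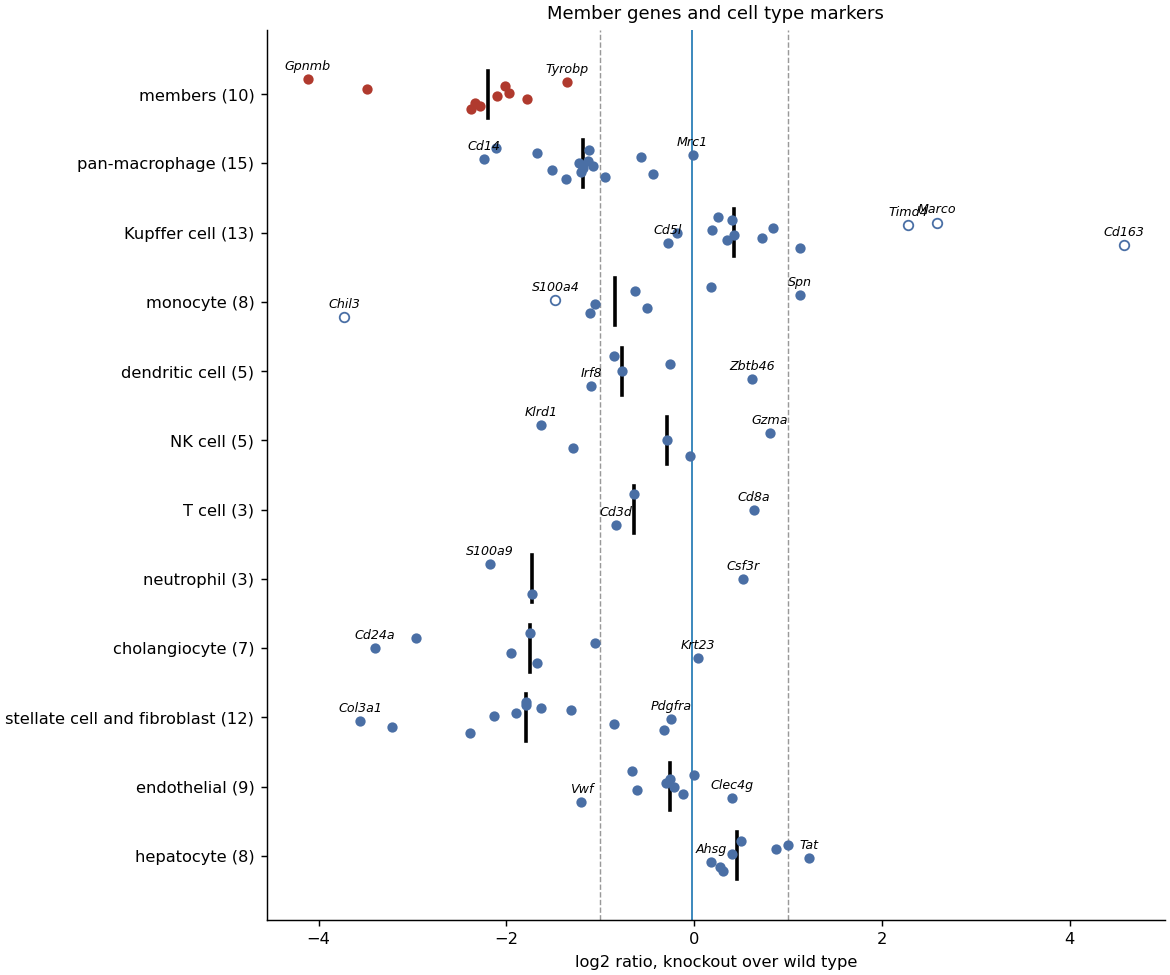
Log2 ratio of knockout over wild type for each kept marker gene (points) of 11 cell types and for the members, with the number of genes in brackets and the lowest, highest and floored genes named; black bars are medians, open points have a value at the floor, dashed lines mark 2-fold and the blue line is the median of all genes at -0.02. Pan-macrophage markers (median -1.18) lie left of the blue line, except Mrc1 at -0.01, and Kupffer cell markers (median 0.43) mostly right of it, with Cd163 farthest right.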

How the data were processed

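Total RNA of mouse liver was hybridised to 1 Affymetrix array per genotype. The authors deposited 1 linear intensity per probe set and array, made with MAS5 per the submitters' processing notes. Its settings, detection calls and genome build were not given in the sources used here. Both arrays have a mean of 500.004 after trimming 2% from each end.

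Of 45101 probe sets, 64 were controls, 34945 named 1 gene, 932 several and 9160 were not named in the platform annotation used here. Symbols were updated by gene identifier through RefSeq (GRCm38.p6), where 34741 matched. Values under the 40th percentile of pooled signals, 46.5, were raised to it, and such ratios are bounds ("at least"). Kept probe sets had a mean over both arrays that reached the median of such means, 73.7, leaving 19800 probe sets and 11693 genes. A gene took its brightest kept probe set. The size rule was 2-fold. No test was possible.

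The members and all lists (4 pathway, 5 family and 11 cell type lists, with 16 genes on more than 1) were chosen with earlier results of these data known. Named genes were the members, Kdm3a, Pik3ca, their listed ligands and partners, and the 3 highest and 3 lowest of each list at most. Csf1, Fabp5, Fcer1g, Mitf, Ctsd, Lipa, Ctsz, Ctsb, Itgam, Spi1, Clec4f and Vsig4 were named after their values were seen. The same holds for C6, Des, Thy1, F13a1, Flt3, Xcr1, Ly6c2, Epcam, Nfatc1 and the genes between Kdm3a and Capg. Genes of the lists that are not named by a single-gene probe set were not analysed here. Alternatives were 5 other scalings (array medians, quantile, loess with a span of 0.3, hybridisation and poly-A controls), other filters and floors, the mean of probe sets, leaving out cross-matching probe sets (names ending in _s_at, _x_at, _a_at or _f_at), and other size rules. Python 3.11.15, numpy 2.4.6, pandas 2.3.3 and statsmodels 0.14.6 were used. The functions were tested on simulated data, with changes set only in brighter genes and less noise than the spread between probe sets here. That test does not cover dim genes.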

Additional observations from a re-analysis of the deposited data

How the results depend on the processing

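All 116 alternative log2 ratios of the members were negative, from -4.25 to -1.16, a direction that their selection in part fixed. Many of them repeat the value as deposited, because most filter, floor and probe set choices leave the same brightest probe set above the floor. Of the 116, 3 moved by more than the SD of 0.446 between probe sets. With a floor at percentile 60 of signals (128), Gpnmb stood at -3.66, Cx3cr1 at -1.68 and Ccr2 at -1.16, because their knockout signals are then at the floor. The number of members at least 2-fold lower stayed at 10, except for 8 of 8 kept with the filter at the 70th percentile or without cross-matching probe sets, and 9 at 3-fold, and their median ranged from -2.32 to -2.01. With poly-A controls, the count of lower genes was 7 of 15 for pan-macrophage and 2 of 8 for monocyte markers. With the filter at the 70th percentile it was 2 of 3 for monocyte markers and 1 of 3 for recruitment and growth factors. With the floor at the 60th percentile it was 2 for each of these lists, and with the mean of probe sets 2 for recruitment and growth factors. At 3-fold it was 2 for ITAM signalling, 2 for binding partners, 6 for the lipid-associated programme, 3 for pan-macrophage and 1 for monocyte markers, and at 1.5-fold it was 8 for ITAM signalling. The Kupffer cell count of lower genes was 0 throughout, beside 4 higher as deposited and 2 of 10 kept with the filter at the 70th percentile. The 1 higher monocyte marker was 0 with that filter, with the floor at the 60th percentile, with the mean of probe sets and at 3-fold. The cholangiocyte median, -1.75 as deposited, ranged from -2.96 to -0.94, and that of monocytes stood at -0.31 with the higher floor. These 2 arrays allow no test at any of these settings. The other 111 of the main counts and medians under alternatives stayed within 1.5 times or within the SD. No paired analysis was possible because each group has 1 array. The precision is limited by the number of arrays, and at low signal by the floor.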

Other observations

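Of the 10 members, 4 (Gpnmb, Cd9, Capg and Clec7a) lie on chromosome 6, which also holds Kdm3a, in the RefSeq annotation of GRCm38.p6. Capg is the nearest, with 32 annotated genes between it and Kdm3a. Of these, 15 were kept. In the knockout array 1 of the 15 was at least 2-fold lower, the long non-coding RNA Particl (-1.13), against 8.96% of all genes kept. At least 2-fold higher were 0, with a median of -0.13 and Atoh8 (0.43) as the highest. Capg itself stood at -1.97. This gene order was looked at after the values were seen.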
